A study of Mus musculus with 6 samples.

Results

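The natriuretic peptide system was followed through 7 genes: the peptide genes Nppa, Nppb and Nppc, the receptor genes Npr1, Npr2 and Npr3, and Corin, which encodes the enzyme that processes the Nppa precursor. Every probe set whose platform symbol is one of these 7 genes was taken, which gave 9 probe sets of the 45037 tested and 7 genes of 18193. Npr3 had 3 probe sets and each other gene had 1. Hearts of mice labelled knockout for miR-1-2 were compared with wild-type hearts, all at postnatal day 10. Each group held 3 mice with 1 array per mouse. The labels give no strain, sex or litter, and do not say how the allele was made. The labels name the deletion of miR-1-2 only, and mature miR-1 is also made from another gene.

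As background, Nppa encodes atrial natriuretic peptide and Nppb brain natriuretic peptide, hormones that heart muscle secretes when it is stretched. Nppa is abundant in atria, and both genes are active in the fetal ventricle and return there under load. Nppc encodes C-type natriuretic peptide, which acts locally. Npr1 and Npr2 are membrane guanylate cyclases that answer these peptides by making cGMP, with Npr1 preferring the cardiac hormones and Npr2 the C-type peptide. Npr3 has no cyclase domain and removes the peptides from the circulation. Corin is a serine protease on the surface of heart muscle cells.

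Nppa and Nppb are neighbours on chromosome 4 on the same strand, with 0 protein-coding genes between them in RefSeq, and their promoters are shown so that the letters before each gene can be set beside the values of the pair. Each sequence is the 250 bases before the annotated start, from RefSeq on GRCm38.p6, read 5′ to 3′ on the plus strand. Capitals mark matches, on either strand, to a GATA element (AGATAA or AGATAG or TGATAA or TGATAG), to an NKX2-5 element (TNAAGTG), to a T-box element (GGTGTGA), to an M-CAT element (CATTCC) or to a TATA box (TATAAA), and no matches overlap.
Nppa, chr4:148000472-148000721, plus strand: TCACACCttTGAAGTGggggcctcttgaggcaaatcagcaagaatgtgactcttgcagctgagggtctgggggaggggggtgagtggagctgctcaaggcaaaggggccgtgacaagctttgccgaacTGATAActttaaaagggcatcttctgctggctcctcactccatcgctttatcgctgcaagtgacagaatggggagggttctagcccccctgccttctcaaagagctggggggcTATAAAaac
Nppb, chr4:147985650-147985899, plus strand: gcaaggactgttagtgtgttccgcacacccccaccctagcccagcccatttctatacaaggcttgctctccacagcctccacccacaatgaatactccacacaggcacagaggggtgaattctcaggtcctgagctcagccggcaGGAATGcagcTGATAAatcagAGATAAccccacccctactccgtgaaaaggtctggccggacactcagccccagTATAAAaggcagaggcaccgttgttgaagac
The Nppa window held 1 T-box, 1 NKX2-5 and 1 GATA match and a TATA box match. The Nppb window held 2 GATA matches, 1 M-CAT match and a TATA box match. The TATA box match began 9 bases before the annotated start in Nppa and 31 bases before it in Nppb. Of 32851 windows of the same length, 26.5% held a GATA match, 10.1% an NKX2-5 match, 3.33% a T-box match, 12.6% an M-CAT match and 12.4% a TATA box. These matches describe the letters of the windows and do not show that a factor binds there. All 7 genes had a window, and the windows of Nppc, Npr1, Npr2, Npr3 and Corin held no match other than a TATA box in Nppc.

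All values below are log2 expression made by RMA, in which 1 unit is a doubling, and every difference is knockout minus wild type. Differences were tested with limma over all 45037 probe sets and adjusted by the Benjamini-Hochberg method. Array medians lay between 6.03 and 6.11. The arrays also differed in ways other than genotype. Xist, the transcript that silences an X chromosome in females, was at 7.55 and 7.57 in knockout replicates 1 and 3, at 12.19 in knockout replicate 2, and between 11.91 and 12.13 in wild type, so sex was not balanced. Ucp1, a marker of brown fat, was at 10.39 in knockout replicate 1 and 9.45 in wild-type replicate 1, and between 5.22 and 6.68 elsewhere. Of the ventricular markers, Myl2, Myl3 and Pln lay between 13.54 and 14.52 in every heart, while Hey2 lay between 5.51 and 6.99 and Kcnj2 between 3.91 and 4.25. The microRNA was not analysed here, so no value checks the genotype of a heart.

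None of the 9 probe sets passed the adjusted threshold of 0.05, and 6 of the 9 were lower in knockout. Over all probe sets 3 passed, or 0.00666%, and 52.9% were lower. With the replicate number as a block, a fit that sets same-numbered hearts against each other, 0 of the 9 passed where 20 probe sets passed in all, or 0.0444%. At an unadjusted p under 0.05, there were 3 of the 9, Nppb, Nppc and Corin, all lower in knockout, where 3.94% of all probe sets reached that level. With the block the same 3 probe sets reached it, where 6.49% of all did. The groups did not overlap for 1 of the 9, Corin, where 8.7% of all probe sets had groups apart. The median difference was -0.096 over the 9 probe sets and -0.0064 over all probe sets.

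**Figure D1:**
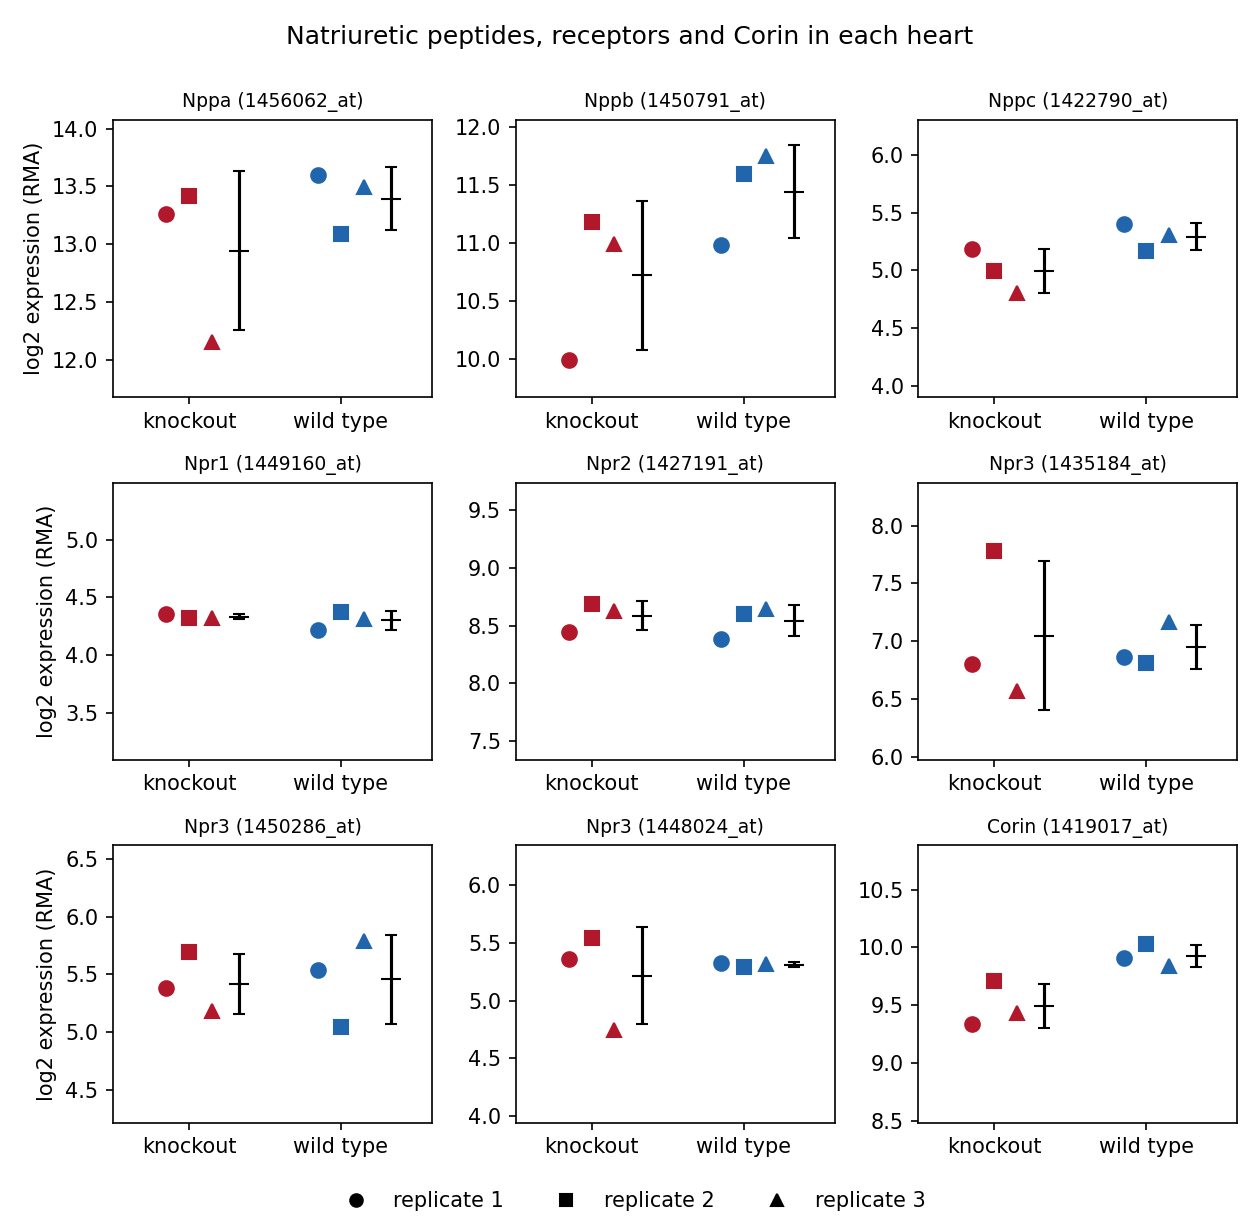
Log2 expression (RMA) of each of the 9 probe sets in each heart, with knockout left of wild type in every panel and marker shape for the replicate number. Bars give the mean and SD of 3 hearts, and every panel spans the same number of log2 units. Corin is the panel in which all 3 knockout hearts lie below all 3 wild-type hearts.

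Nppb had the largest difference of the 7 genes. Nppb was at 9.98, 11.18 and 10.99 in knockout replicates 1, 2 and 3, against 10.99, 11.59 and 11.75 in wild-type replicates 1, 2 and 3. Knockout replicate 1 stood far below every other heart, wild-type replicate 1 was the lowest of its group, and the groups overlapped. The means were 10.72 ± 0.64 in knockout and 11.44 ± 0.40 in wild type (SD, n = 3 each). The difference was -0.72 (95% interval -1.40 to -0.050), or 0.605 times the wild-type level, and did not pass (limma adjusted p = 1.00). Only 0.0777% of all probe sets had a difference of larger size.

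Within the pairs of replicate number, Nppb differed by -1.003, -0.41 and -0.76, lower in knockout in 3 of 3, as were Nppc and Corin. Of all probe sets 27.2% went 1 way in all pairs. The blocked interval was narrower, from -0.97 to -0.48, and the adjusted p was 0.104 with the block (limma). Among genes at 1 probe set each, the blocked adjusted p was 0.0837. The value depended on 1 heart: without knockout replicate 1 the difference was -0.36, and with both arrays of replicate number 1 left out it was -0.58 (limma adjusted p = 0.292). Those are the hearts with high Ucp1, and the mean of 11 measured fat markers was 7.69 in knockout replicate 1 and 7.46 in wild-type replicate 1, where the other arrays lay between 6.78 and 6.88. Of the fat markers, Adipoq was at 7.32 and 6.85 in these hearts and from 3.68 to 3.86 in the others. Prdm16 was lowest in these hearts, at 7.14 and 7.03, and Fabp4 did not set them apart. The mean of the lymphoid and thymus markers was also highest in them, at 6.03 and 6.30, with 5.80 to 5.95 in the others. Of these markers, Rag1 was at 4.52 and 5.90 in these hearts and from 3.68 to 3.96 in the others. Cd3e, Cd4 and Dntt were also highest in them, while Cd8a, Cd79a and Ptcra did not set them apart. The part of fat or thymus tissue in the low Nppb values was not tested.

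Nppa showed a lower knockout mean that came from 1 heart. Nppa was at 13.26, 13.42 and 12.16 in knockout replicates 1, 2 and 3, against 13.60, 13.09 and 13.50 in the wild-type replicates. Knockout replicate 3 lay far below the other 5 hearts, and the other knockout hearts lay inside the wild-type range. The means were 12.95 ± 0.69 in knockout and 13.39 ± 0.27 in wild type (SD, n = 3 each), a difference of -0.45 (95% interval -1.10 to 0.21, limma adjusted p = 1.00). Without knockout replicate 3 the difference was -0.054, and without knockout replicate 2 it was -0.68. Nppa was higher in knockout in 1 of 3 pairs, with pair differences of -0.34, 0.33 and -1.34.

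Nppa and Nppb were among the transcripts that varied most between hearts of the same genotype. The pooled within-group SD was 0.52 for Nppa, 0.54 for Nppb and 0.47 for the brightest Npr3 probe set, beside a median of 0.11 over all probe sets. Only 0.173%, 0.16% and 0.233% of probe sets had a larger one. Although neighbours in the genome, Nppa and Nppb were low in different hearts: Nppa in knockout replicate 3 and Nppb in knockout replicate 1.

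Nppc was dim, below the median of every array. Nppc was at 5.18, 4.99 and 4.81 in the knockout hearts, against 5.41, 5.17 and 5.31 in the wild-type hearts. Knockout replicate 1 lay just above the lowest wild-type heart, and the other knockout hearts lay below all 3. The means were 4.995 ± 0.19 in knockout and 5.29 ± 0.12 in wild type (SD, n = 3 each), and the difference of -0.30 (95% interval -0.54 to -0.053) did not pass (limma adjusted p = 1.00, and 0.598 with the block). It was lower in knockout in 3 of 3 pairs, and with each heart left out in turn it lay between -0.39 and -0.20. RMA compresses differences in this dim range.

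Corin was lower in every knockout heart than in any wild-type heart. Corin was at 9.34, 9.71 and 9.43 in knockout replicates 1, 2 and 3, against 9.91, 10.03 and 9.84 in the wild-type replicates. The nearest hearts were knockout replicate 2 and wild-type replicate 3. The means were 9.49 ± 0.19 in knockout and 9.92 ± 0.10 in wild type (SD, n = 3 each), a difference of -0.43 (95% interval -0.67 to -0.19), or 0.742 times the wild-type level. Of all 45037 probe sets, Corin ranked 98 by unadjusted p (0.00268), and it did not pass after adjustment (limma adjusted p = 1.00, and 0.24 with the block). Pair differences were -0.57, -0.32 and -0.40, and with each heart left out in turn the difference lay between -0.54 and -0.35.

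**Figure D2:**
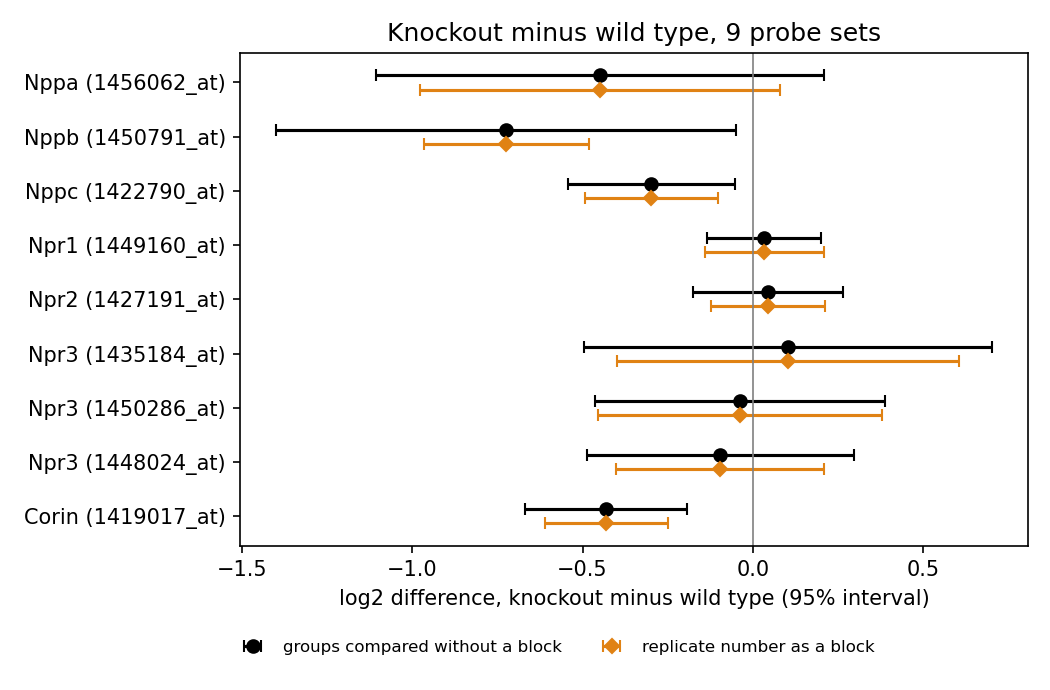
Log2 difference, knockout minus wild type, of the 9 probe sets with 95% intervals. Circles give the comparison of groups without a block, and diamonds the fit with replicate number as a block. The titles do not say that the numbers mark pairs. In both fits the unadjusted intervals of Nppb, Nppc and Corin lie below 0, and those of Nppa and of all receptor probe sets span 0.

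Of the cyclase receptors, neither passed, and both had differences under 0.05. Npr2 was at 8.45, 8.69 and 8.62 in the knockout hearts, against 8.39, 8.60 and 8.64 in the wild-type hearts. Both groups covered the same range, with replicate 1 the lowest heart in each. The means were 8.59 ± 0.13 in knockout and 8.54 ± 0.14 in wild type (SD, n = 3 each), and the difference of 0.043 had a 95% interval from -0.18 to 0.26 (limma adjusted p = 1.00). Within that interval the level in knockout could lie between 0.884 and 1.2 times that in wild type. Npr1, the receptor of the peptides from Nppa and Nppb, was at 4.36, 4.32 and 4.32 in the knockout hearts, against 4.21, 4.37 and 4.31 in the wild-type hearts. These values lay in the dim part of the scale and overlapped, and the difference of 0.033 (95% interval -0.13 to 0.20) did not pass (limma adjusted p = 1.00). At this signal a change in Npr1 could go unseen.

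Npr3, the clearance receptor, differed more between hearts than between genotypes. Its brightest probe set (1435184_at) was at 6.80, 7.78 and 6.57 in knockout replicates 1, 2 and 3, against 6.86, 6.81 and 7.17 in the wild-type replicates. Knockout replicate 2 was the highest heart and knockout replicate 3 the lowest, so the wild-type values lay inside the knockout range. The means were 7.05 ± 0.64 in knockout and 6.95 ± 0.19 in wild type (SD, n = 3 each), a difference of 0.10 (95% interval -0.50 to 0.70, limma adjusted p = 1.00). Without knockout replicate 2 it was -0.26, and without knockout replicate 3 it was 0.34. The dimmer probe sets 1450286_at and 1448024_at differed by -0.038 and -0.096, the opposite direction. All 3 probe sets were highest in knockout replicate 2 among knockout hearts and lowest in knockout replicate 3. In knockout replicate 2 the lung surfactant gene Sftpc was at 7.07, with 5.27 to 5.76 in the other hearts, while Sftpb was at 7.06 there and from 7.06 to 7.21 in the others. The part of such tissue in the high Npr3 value was not tested. Endothelial and endocardial markers were higher in knockout in 13 of 16, with a median difference of 0.090, and 0 passed. Their mean difference was 0.061, and it was 0.13 without knockout replicate 1, 0.011 without knockout replicate 2, 0.040 without knockout replicate 3, 0.0075 when wild-type replicate 1 was left out and 0.10 when wild-type replicate 3 was.

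Knockout replicate 2, the knockout heart with high Xist, was the highest of the knockout hearts for Nppa, Nppb, Corin, Npr2 and all Npr3 probe sets. With the Xist level as a covariate the differences were -0.013 for Nppa, -0.27 for Nppb, -0.23 for Corin and -0.30 for Nppc. Npr3 1435184_at moved the other way, to 0.79 from 0.10 without the covariate. The differences were 0.22 for Npr3 1450286_at, 0.21 for Npr3 1448024_at, 0.15 for Npr2 and 0.026 for Npr1. None passed. The covariate rests on 1 knockout heart with high Xist, because all 3 wild-type hearts have it.

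The 4 genes whose array pattern was nearest to Nppa were Stard10, Osr1, Mlana and Angpt1. Likeness was the root mean square difference of the values over the 6 arrays after each gene was centred on its own mean, among 11546 genes with a mean of at least 6. For Stard10, one of the atrial markers listed, it was 0.076, beside 0.48 for the spread of Nppa about its own mean. It was 0.14 for Osr1, a zinc finger transcription factor, 0.17 for Mlana, a gene of pigment cells, and 0.18 for Angpt1, a ligand of the endothelial receptor Tek. For Nppb the nearest were Erdr1 (0.24), Ccn2 (0.26), which encodes a matrix-associated growth regulator, Ppp1r3c (0.27), a glycogen-targeting phosphatase subunit, and Armcx4 (0.28), beside a spread of 0.57 for Nppb itself. Nppb stood at place 11500 of these genes in likeness to Nppa, with a difference of 0.71. Likeness was not scaled for spread, and a gene that did not vary would differ from Nppa by 0.48. The place therefore partly reflects the large spread of Nppb, and does not show that the pair ran opposite ways.

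The mean level of the atrial markers was low in the same hearts as Nppa. These markers include Stard10 and were chosen with earlier results of these data known. Their mean over 14 genes was 8.31, 8.62 and 7.87 in knockout replicates 1, 2 and 3, against 8.67, 8.29 and 8.63 in the wild-type replicates. As for Nppa, knockout replicate 3 was the lowest heart and wild-type replicate 2 the lowest of its group. Knockout replicate 3 was the lowest heart for 8 of the 14 markers, wild-type replicate 2 for 3, knockout replicate 1 for 2 and wild-type replicate 1 for 1, Kcnk3. Of the 14, 11 were lower in knockout, where 49.8% of all genes were, with a median difference of -0.22, beside 0.00048 over all genes, and 0 passed without or with the block (over all genes 0% and 0.0715% passed). Without knockout replicate 3 the mean difference of the list was -0.066, and without knockout replicate 2 it was -0.45, beside -0.27 with all hearts. Sln, sarcolipin of atrial muscle, was at 10.79, 11.46 and 8.996 in the knockout hearts, against 11.63, 10.78 and 11.56 in the wild-type hearts. Myl7, the atrial myosin light chain, was at 12.87, 13.31 and 11.69 in the knockout hearts, against 13.37, 12.41 and 13.27 in the wild-type hearts.

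For both genes the lowest heart was knockout replicate 3 and the lowest wild-type heart was replicate 2. The atrial markers with the smallest p were Bmp10, an atrial growth factor (-0.27), Kcnk3, a background potassium channel (0.28), and Nr2f2, a transcription factor of atrial identity (-0.18). For 2 of the 14, Bmp10 and Nr2f2, the knockout hearts lay below all wild-type hearts, where 8.86% of all genes had groups apart. For Nr2f2 the separation was slight, with knockout replicate 1 at 6.845 and wild-type replicate 2 at 6.848. In whole hearts, less atrial tissue and less RNA per atrial cell cannot be told apart, and the part of the atrial share in the Nppa values was not tested.

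**Figure D3:**
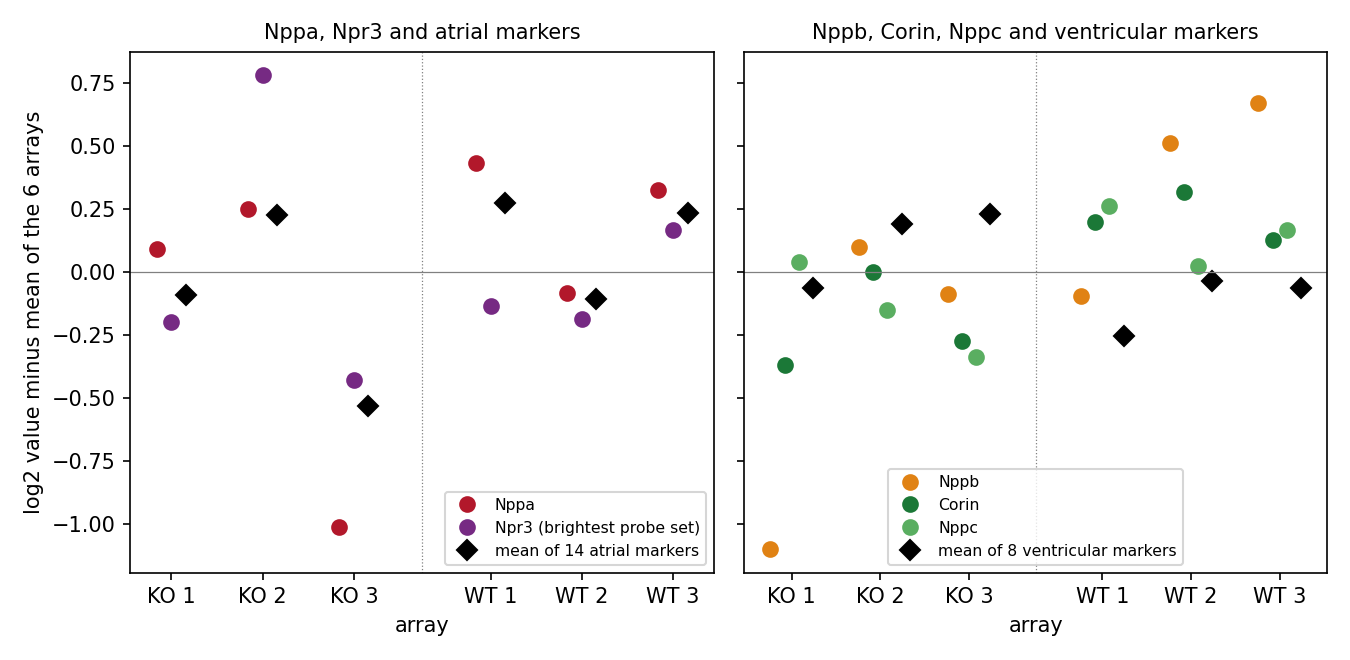
Log2 value minus the mean of the 6 arrays, by array, with knockout (KO) left of wild type (WT). The left panel shows Nppa, the brightest Npr3 probe set and the mean of 14 atrial markers, all lowest in KO 3. The right panel shows Nppb, Corin, Nppc and the mean of 8 ventricular markers, with Nppb lowest in KO 1.

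Ventricular markers were higher in knockout in 8 of 8, where 50.2% of all genes were. The median difference was 0.12, and 0 passed without or with the block. Their mean was 10.46, 10.71 and 10.75 in the knockout hearts, against 10.27, 10.49 and 10.46 in the wild-type hearts, and the groups overlapped. Kcnip2, a subunit partner of the transient outward current channel, differed by 0.52 and Irx4, a ventricular transcription factor, by 0.43. Groups were apart for these 2 of 8, beside the 8.86% of all genes. Hey2 differed by 0.63 and Gja1 by 0.20, while Kcnj2 (0.048), Myl2 (0.046), Myl3 (0.019) and Pln (0.00043) hardly differed. Markers of macrophages and other myeloid cells were lower in knockout in 9 of 10, with a median of -0.23. In 5 of the 10 the groups were apart, where 8.86% of all genes had groups apart, and 0 passed. The mean difference of the list was -0.22, and -0.13 without wild-type replicate 1. Their mean lay between 6.83 and 7.03 in knockout and between 7.01 and 7.33 in wild type. Their part in the Corin and Nppb values was not tested.

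Enzymes that process or clear the peptides went both ways. Of 10 measured genes 5 were higher and 5 lower in knockout, with a median of -0.018, and 0 passed without or with the block. Dpp4, a dipeptidyl peptidase that trims the Nppb peptide, differed by -0.16 and was the 1 of 10 with groups apart, a share near the 8.86% of all genes. Pcsk7 (0.11), Pcsk5 (-0.12) and Pcsk6 (-0.059) are convertases that cut precursors, and in humans the product of PCSK6 activates corin.

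The genes that make, break down and answer cGMP also went both ways. Of 30 measured, 15 were higher and 15 lower, with a median of -0.0060, and 0 passed without or with the block. Abcc5, an exporter of cyclic nucleotides, was at 8.995, 8.85 and 8.90 in the knockout hearts, against 9.10, 9.10 and 9.05 in the wild-type hearts. Its groups did not overlap, and the difference was -0.17. Rgs4, which limits G protein signals and is a target of the cGMP kinase, differed by -0.20. The phosphodiesterases Pde1c (0.19) and Pde3b (0.10) were higher. Groups were apart for 3 of 30 (Abcc5, Rgs4 and Pde3b), a share near the 8.86% of all genes.

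Transcriptional regulators reported to act on Nppa or Nppb were more often higher than lower in knockout, and the size of the shift moved with single hearts. Of 32 measured, 25 were higher and 7 lower, with a median of 0.11 beside 0.00048 over all genes. None passed over all genes without or with the block. The mean difference was 0.12 with all hearts. It was 0.23 without knockout replicate 1, 0.076 without knockout replicate 2, 0.057 without knockout replicate 3, 0.031 when wild-type replicate 1 was left out and 0.19 when wild-type replicate 3 was. Gata6, a zinc finger factor that binds GATA elements, was at 9.92, 10.23 and 10.20 in the knockout hearts, against 9.40, 9.85 and 9.92 in the wild-type hearts. Its difference was 0.39. Gata6 was the 1 regulator of the 32 with groups apart, a share below the 8.86% of all genes. The separation was slight, with knockout replicate 1 at 9.923 and wild-type replicate 3 at 9.918. Hdac9, a class IIa histone deacetylase (0.31), Tbx20, a T-box factor of heart muscle (0.29), and Hand2, a factor of the right ventricle (0.35), followed by unadjusted p. At an unadjusted p under 0.05 there were 2 of 32, where 4.1% of genes reached it, and with the block 9 of 32, where 7.29% did.

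Fetal and stress genes, with which Nppa and Nppb are usually grouped, were split. Of 16 measured, 8 were higher and 8 lower, with a median of 0.033. Without the block 0 passed. With it 1 did, where 0.0715% of all genes passed: the slow myosin Myh7, with a difference of 1.58 (limma adjusted p = 0.0261). Myh7 was at 9.41, 10.91 and 11.59 in the knockout hearts, against 8.18, 9.53 and 9.47 in the wild-type hearts, and the groups overlapped. With the block and without replicate 3, 0 passed. Acta2, smooth muscle actin, was at 13.19, 13.23 and 13.12 in the knockout hearts, against 12.89, 12.76 and 12.63 in the wild-type hearts, so that its groups did not overlap. Csrp3, a stretch-sensing protein of the Z-disc, was at 12.78, 12.80 and 12.81 in the knockout hearts, against 13.07, 13.01 and 12.99 in the wild-type hearts, below all of them. Acta1, skeletal actin, differed by -0.53. Nmrk2, which phosphorylates nicotinamide riboside, differed by 0.29. Of the 16 genes 6 had groups apart, 3 higher and 3 lower, where 8.86% of all genes did.

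**Figure D4:**
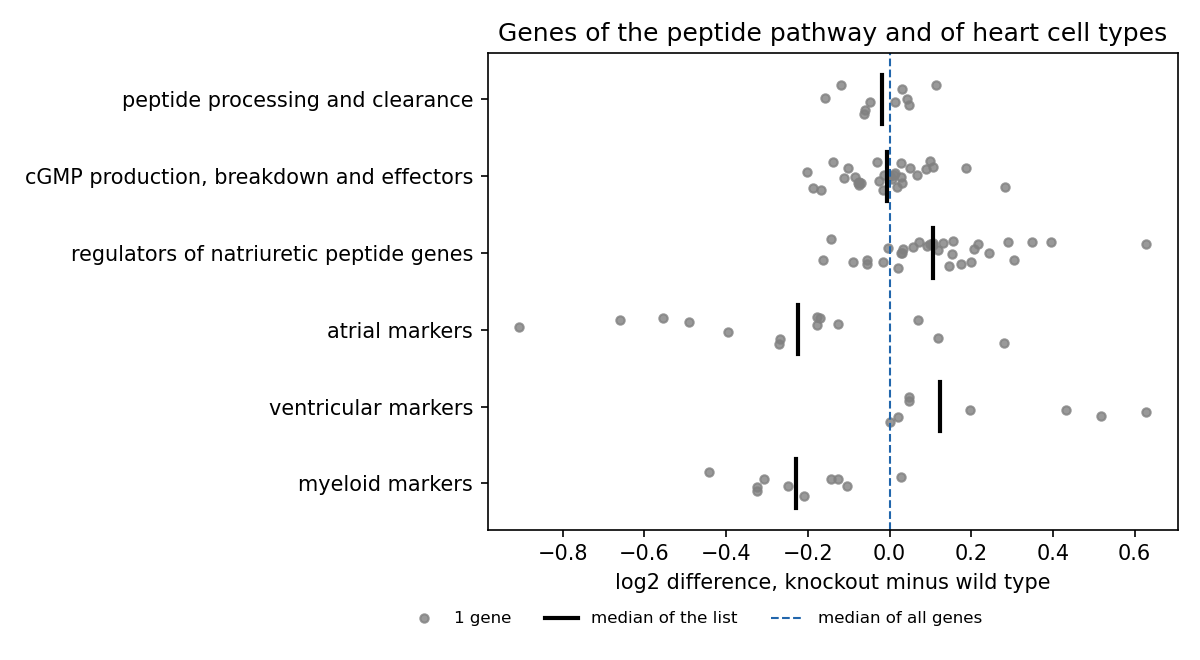
Log2 difference, knockout minus wild type, of each measured gene in 6 lists, with the median of each list (black bar) and the median of all genes (dashed line). Regulators (median 0.11) and ventricular markers (0.12) lie to the right of the dashed line, and atrial (-0.22) and myeloid markers (-0.23) to the left.

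**Figure D5:**
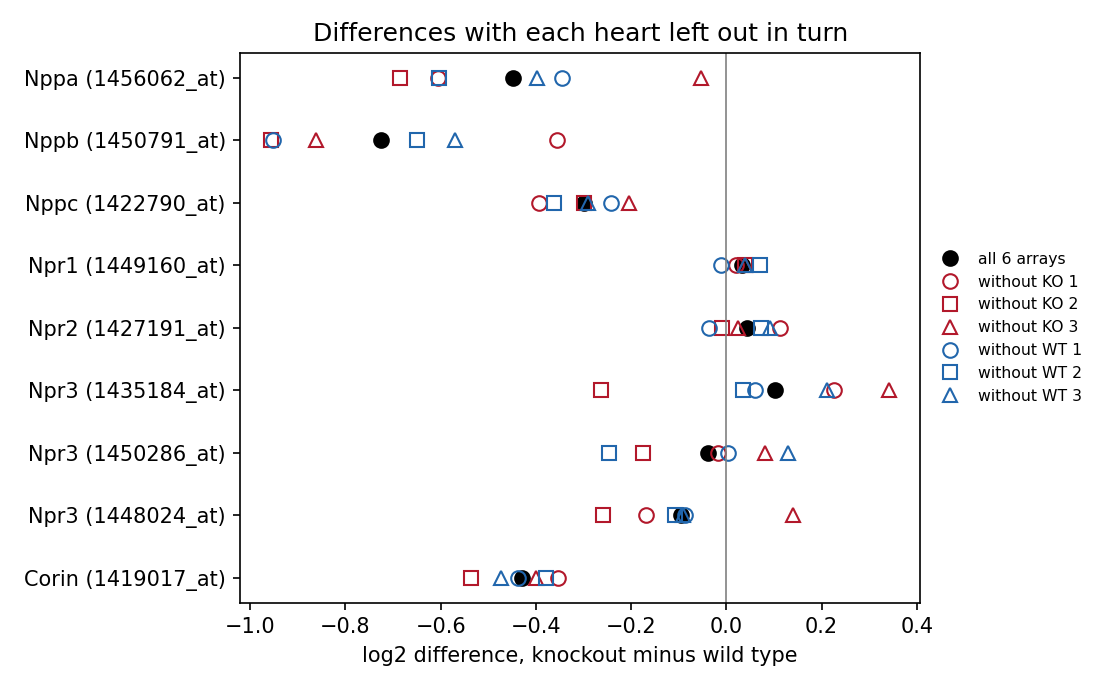
Log2 difference, knockout minus wild type, of the 9 probe sets with all 6 hearts (filled) and with each heart left out in turn (open). Nppa moves to -0.054 without KO 3 and Nppb to -0.36 without KO 1, while Corin stays between -0.54 and -0.35.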

How the data were processed

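Total RNA of 6 mouse hearts was extracted with Trizol, amplified, labelled with biotin and hybridised to Affymetrix arrays, per the labels' protocols. The authors deposited log2 values, computed with RMA in the affy package per the series' design text. GCOS 1.4 is named in the submitters' processing notes. RMA corrects background, aligns the probe distributions of all arrays and summarises each probe set, which compresses low signal and removes shifts shared by most genes. Arrays have no read depth, so the number of arrays limits precision.

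Control probe sets (64 of 45101) were left out. Symbols came from the platform annotation, updated by gene identifier through RefSeq. limma 3.58.1 in R 4.3.3 was run on all 45037 probe sets and, for gene lists, on the brightest probe set of each of 18193 genes, with Benjamini-Hochberg adjustment. It was tested on simulated data. Of 205 genes in 16 lists written from general knowledge, 192 were measured. The named genes were all member probe sets, the 3 or 4 listed genes with the smallest p, the brightest markers, and the 4 genes nearest Nppa and Nppb. The members and lists were chosen with earlier results of these data known.

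Replicate numbers come from the titles, which do not say that they mark litters. Deviations of same-numbered arrays correlated at 0.54, 0.18 and 0.13. Knockout replicate 2 correlated more with wild-type replicate 3 (0.30), and knockout replicate 3 more with wild-type replicate 2 (0.35). Only knockout replicate 1 was therefore nearest to the wild-type heart of its own number. Alternatives were a replicate block, leaving out each heart, other variance models, array weights, a further normalization, a filter on dim probe sets, and Xist or replicate 1 as covariates.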

Additional observations from a re-analysis of the deposited data

How the results depend on the processing

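No member probe set passed in any alternative, except Nppb (-0.88, adjusted p = 0.00534) with the replicate block and without replicate 2, a fit in which knockout hearts have low and wild-type hearts high Xist: there 1 member passed. Nppa, Nppb, Nppc and Corin were lower in knockout in all 17 alternatives, with ranges of -0.89 to -0.0032 for Nppa, -0.96 to -0.27 for Nppb, -0.40 to -0.20 for Nppc and -0.54 to -0.23 for Corin. Some of the 17 could not turn a sign. The block on all hearts, trend and robust variance, the filter on dim probe sets and replicate 1 as a batch leave a difference unchanged. The block without replicate 1 gives the same difference as leaving out both arrays of number 1. With each heart left out the differences lay between -0.68 and -0.054 for Nppa, -0.011 and 0.070 for Npr1, and -0.036 and 0.11 for Npr2. They lay between -0.26 and 0.34 for Npr3 1435184_at, -0.25 and 0.13 for Npr3 1450286_at, and -0.26 and 0.14 for Npr3 1448024_at. Receptor signs also turned elsewhere: Npr3 1435184_at was at -0.33 with the block without replicate 2 and at -0.15 with array weights. Npr3 1450286_at was at 0.023 with the block without replicate 1 and without both arrays of number 1, 0.25 with the block without replicate 3 and 0.22 with the Xist covariate. Npr3 1448024_at was at 0.14 and 0.21 in the last 2 of these settings, Npr1 at -0.023 without both arrays of number 1 and with the block without replicate 1, and the mean of the Npr3 probe sets at -0.011. The causes were not tested.

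Of all probe sets, 20 passed with the replicate block, 55 with the block without replicate 2, 24 with array weights, 6 with trend and robust variance, 24 with replicate 1 as a batch, 0 with a mean of at least 5 and 0 with the Xist covariate, beside 3 as reported and 1 to 15 with each heart left out. With the filter Npr1 was not tested. Of the 192 listed genes, tested at 1 probe set per gene, 1 passed with the block, where 0.0715% of all genes passed. There were 2 with the block without replicate 1, 8 with the block without replicate 2 and 14 with array weights. With replicate 1 as a batch 1 passed, and 0 passed in the other alternatives and with each heart left out. Apart from the block, the share of all genes passing in these settings is not given. The counts therefore do not show an excess in the lists. The block changed the call of no member. The choice to leave out both arrays of number 1 was made after seeing the data.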

Other observations

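The protein-coding neighbours of Nppb and Nppa on chromosome 4 were measured for 5 of the nearest 6, and none passed. Clcn6, a chloride-proton exchanger that lies next to Nppa, was at 7.03, 7.04 and 6.96 in the knockout hearts, against 6.74, 6.89 and 6.92 in the wild-type hearts. Its difference was 0.16 (limma adjusted p = 1.00). Its groups did not overlap, 1 of the 5 neighbours, where 8.86% of all genes had groups apart. Agtrap, which encodes a protein bound to the angiotensin receptor, differed by -0.15. On the Nppb side, Plod1, a collagen-modifying enzyme, differed by 0.074, Mfn2, which fuses mitochondria, by 0.079, and 2510039O18Rik by -0.048.

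Markers of the other tissues a dissected heart could hold gave 0 passing genes without or with the block. Fibroblast markers were lower in knockout in 8 of 10 (median -0.040), lymphoid and thymus markers in 6 of 7 (-0.099) and neural and Schwann cell markers in 3 of 4 (-0.025). Skeletal muscle markers were lower in 8 of 13 (-0.0085), fat markers in 6 of 11 (-0.017), smooth muscle markers in 3 of 6 (-0.0072), erythroid markers in 2 of 4 (0.023) and lung epithelial markers in 1 of 4 (0.0081). The smooth muscle list shares Acta2 with the fetal and stress genes. The ventricular list shares Hey2 with the regulators and Pln with the cGMP genes.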
